A study of Arabidopsis thaliana with 4 samples.

Results

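The genes described here encode proteins of the large (60S) subunit of the cytosolic ribosome, from family L21 to family L39, and the acidic stalk proteins P1 and P2. The list held 60 loci of 23 families, and a locus was taken where the platform annotation gave it a probe set of its own. This left 37 genes of 15 families, out of 13355 named genes on the array. A further 12 loci shared a probe set with another locus of their family, and 11 had no listed probe set and are not analysed here. None of the 37 has a symbol other than its locus name in RefSeq, so family names follow the usual nomenclature of Arabidopsis ribosomal proteins.

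Seedlings of wild-type Arabidopsis thaliana, accession Ler, were used at an age of 7 d under low light. Groups were hypoxia (12 h) and non-stressed control, each measured in RNA from large polysomes and in total RNA, with 1 ATH1 array in each of the 4 groups. No allele, transgene or agent other than hypoxia is given. A time of 12 h is labelled for the large-polysome control and none for the control in total RNA, so ratios with the total RNA control array may hold a difference in sampling time. With 1 array per group no spread between samples can be had, so no difference below has a replicate check and no p-value is given.

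Each 60S subunit carries 1 copy of most of its proteins, and in plants most of them are encoded by small families of near-identical genes. P1 and P2 differ from the others: they form the flexible lateral stalk, anchored by P0, that recruits elongation factors to the ribosome. An mRNA on large polysomes carries many ribosomes, and the ratio of its large-polysome signal to its total signal, the polysome ratio, says how far it is found there relative to other mRNAs. Translation of ribosomal protein mRNAs, whose products are among the most costly for a cell to make, is known to be held back when energy is scarce.

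Values are probe set intensities that the authors had scaled to a common mean per array. An intensity of 139, the highest 40th percentile of the arrays, served as a floor, and a ratio with 1 side below it is a bound. Of the 37 genes, 33 were above the floor on all 4 arrays. As a gauge of probe error, the log2 ratios of 2 probe sets for 1 gene lay a median of 0.37 apart for hypoxia over control in large-polysome RNA and 0.35 in total RNA. For the polysome ratio this was 0.51 in hypoxia and 0.45 in control, and for the change between these 0.47. Brightness differs from probe set to probe set, so an intensity is not a level that can be set against that of another gene. Unless a fold is named, the ratios below are on the log2 scale. Directions are relative to the average gene, since a common shift of all mRNA cannot be seen in scaled values. Scaling on the spiked control probe sets instead moved the median of all named genes by -0.31 in hypoxia over control in large-polysome RNA and by 0.28 in total RNA. It moved the polysome ratio by 0.01 in hypoxia and by 0.62 in control, and the change between them by -0.65. Whether the spiked controls follow the amount of mRNA in a sample was not tested. These shifts are therefore no measure of a common change of all mRNA.

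On large polysomes these mRNAs were lower in hypoxia than in control, while in total RNA they stood near the average gene, or below it by 0.21 after quantile normalization. Their median log2 ratio of hypoxia over control was -0.48 in large-polysome RNA, a median 1.39-fold lower, against -0.07 for all 7314 named genes measured there. With the spiked controls it was -0.84, where all genes stood at -0.39. In total RNA it was -0.06, as for all 7639 genes, and 0.25 with the spiked controls, where all genes stood at 0.22. Below 0 in large-polysome RNA were 32 of 35 members (background 54.7% of named genes) and in total RNA 20 of 35 (background 54%), or 35 and 10 of 35 with the spiked controls (all named genes 73.1% and 35.5%). After quantile normalization 24 of 35 were below 0 in total RNA (all named genes 46.2%). At least 2-fold lower were 5 members in large-polysome RNA (background 10%), or 15 with the spiked controls (all named genes 19.7%), and 1 in total RNA (background 8.72%), and 2-fold higher were none (background 8.07%) and 1 (background 5.42%). A lower value by more than the median difference of probe set pairs was found for 22 of 35 members in large-polysome RNA, against 33.1% of named genes, and for 10 of 35 in total RNA, against 31.8%.

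**Figure D1:**
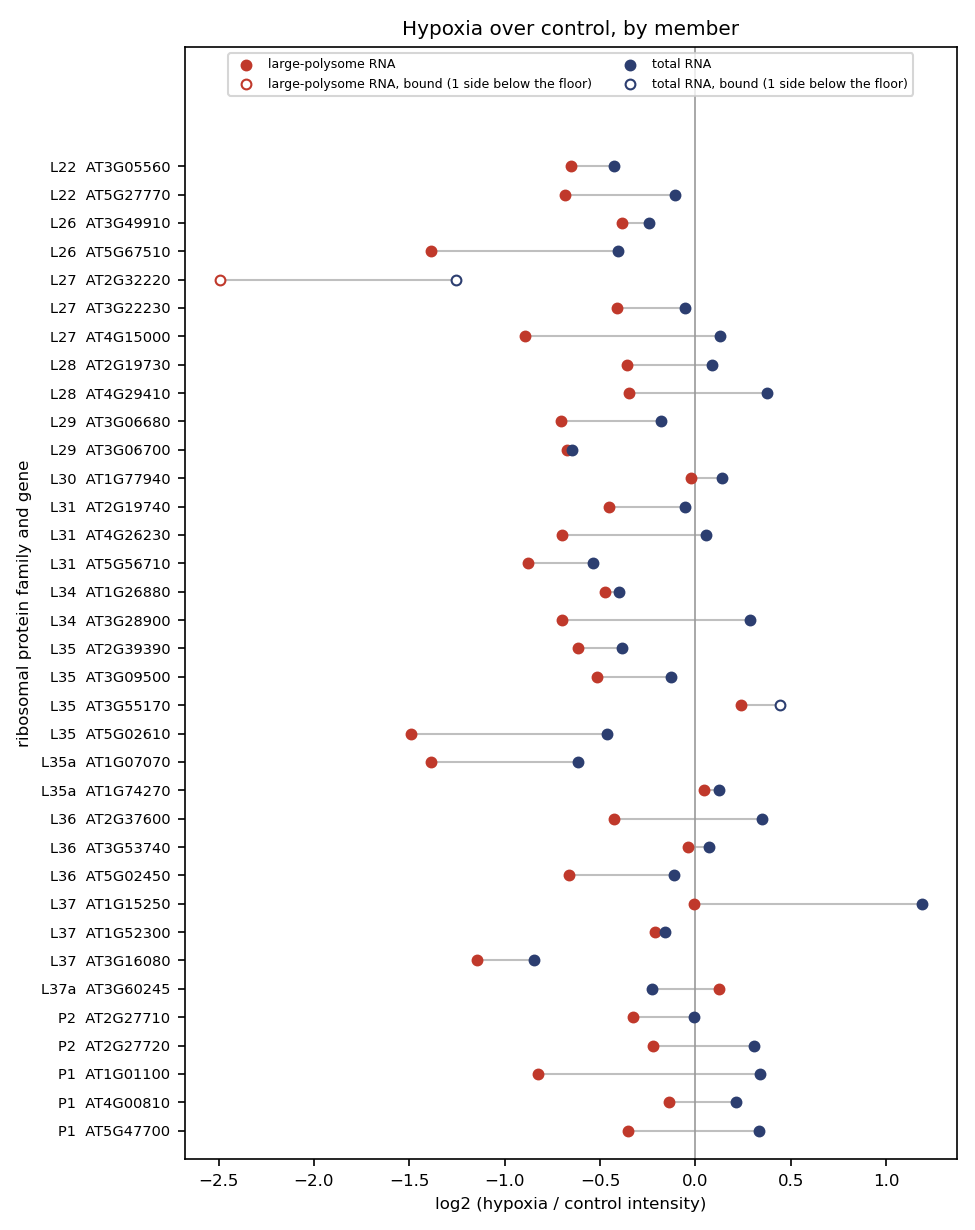
Log2 ratio of hypoxia over control (x axis) for each member (rows, by family), in large-polysome RNA (red) and total RNA (blue), 1 array per group; open symbols are bounds. In large-polysome RNA 32 of 35 members lie left of 0, and in total RNA 20 of 35.

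In hypoxia these mRNAs stood closer to the average mRNA in their distribution over large polysomes than in control, where every measured member was richer in large-polysome RNA than in total RNA. Their median log2 polysome ratio was 0.19 in hypoxia, a 1.14-fold difference, with 25 of 34 members above 0 (background 47.4%) and 1 at least 2-fold higher (background 1.06%), while 5 were above 0 by more than the median difference of probe set pairs (background 10.2%) and 1 below 0 by more than it (background 10.6%). In control the median was 0.71, a 1.63-fold difference, with 35 of 35 members above 0 (background 47.3%) and 6 at least 2-fold higher (background 2.08%), or 28 with the spiked controls (all named genes 20.6%). Above the median difference of probe set pairs were 26 of 35 in control (background 16.1%). All named genes had medians of -0.02 in both. The hypoxia value minus the control value of the log2 polysome ratio, called the change of association, had a median of -0.40 over 33 members and was below 0 for 32 of them (background 51%). It holds the control ratio with its sign turned, and of all 2868 named genes above 0 in that ratio 73.1% had a change below 0. At least 2-fold lower in this measure were 4 members (background 1.9%), or 21 with the spiked controls (all named genes 22.8%), and 15 were lower by more than the median difference of probe set pairs (background 15.5%).

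**Figure D2:**
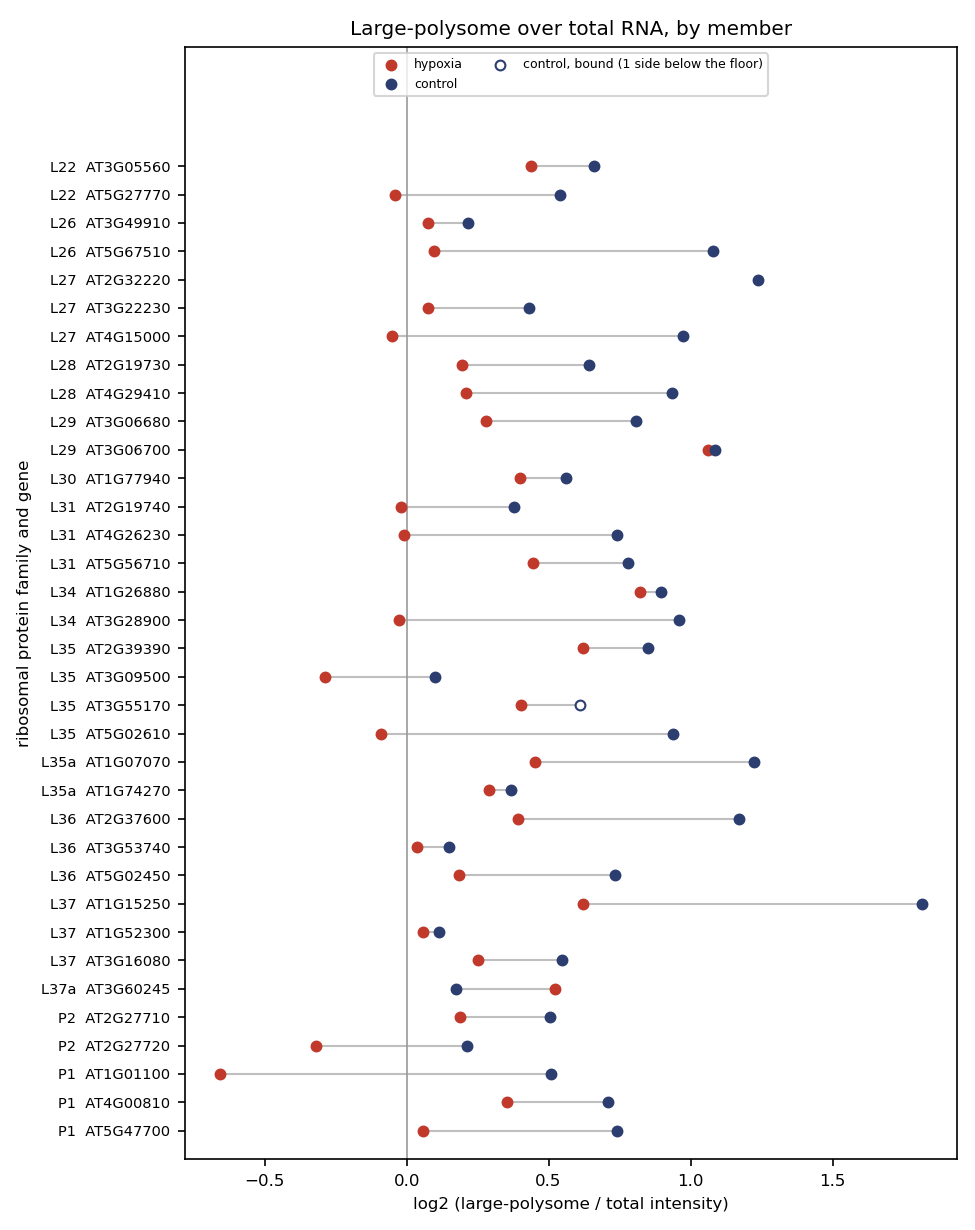
Log2 polysome ratio, large-polysome over total intensity (x axis) for each member (rows, by family), in hypoxia (red) and control (blue), 1 array per group; the open symbol is a bound. The red point lies left of the blue one for 32 of the 33 members above the floor on all 4 arrays, the exception being the L37a gene AT3G60245, whose change is below 0 with the spiked controls.

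Actin control probe sets gave a higher 3' over 5' signal ratio on both large-polysome arrays, with 2.15 in hypoxia and 2.45 in control on large polysomes, against 1.22 and 1.39 in total RNA. A second actin pair gave 7.34 and 10.9 on large polysomes, against 5.53 and 5.46 in total RNA. GAPDH pairs differed less between fractions, with 1.29 and 1.11 against 1.12 and 0.96, and 0.80 and 1.12 against 0.75 and 1.06. The first ubiquitin pair was lower in hypoxia in both fractions, with 1.24 and 2.02 against 1.04 and 1.49. A second ubiquitin pair gave 1.94 and 1.92 against 1.13 and 1.29. The 25S rRNA control probe set had an intensity of 254 in hypoxia and 64.4 in control on large polysomes, against 358 and 352 in total RNA, which sets the large-polysome control array apart. Scanning was done 2 times for hypoxic total RNA and 1 time for every other array. The part of these differences in the ratios was not tested. All 6 measured genes of an 11-gene core hypoxia list were at least 2-fold higher in hypoxia in both fractions. Among named genes 5.42% were so in total RNA and 8.07% in large-polysome RNA. The list was chosen with earlier results of these data known, so this is no independent check of the treatment. Control values of AT5G10040 in both fractions and of CML38 on large polysomes were below the floor, so those ratios are bounds.

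The P1 and P2 genes encode proteins of the stalk. In P1, AT1G01100 had intensities of 5434 in hypoxia and 9640 in control in large-polysome RNA, and 8574 in hypoxia and 6782 in control in total RNA. In hypoxia it was lower on large polysomes (log2 -0.83) and higher in total RNA (0.34), and its log2 polysome ratio was -0.66 in hypoxia and 0.51 in control. The hypoxia value was the lowest of all 34 members, and the change of -1.17 the second lowest of 33. AT4G00810 had 5021 in hypoxia and 5535 in control in large-polysome RNA, and 3930 in hypoxia and 3389 in control in total RNA. AT5G47700 had 5201 in hypoxia and 6635 in control in large-polysome RNA, and 4997 in hypoxia and 3967 in control in total RNA. Both followed the same order in each fraction, with large-polysome RNA lower in hypoxia (log2 -0.14 and -0.35) and total RNA higher (0.21 and 0.33).

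In P2, AT2G27710 had 8536 in hypoxia and 10718 in control in large-polysome RNA, and 7495 in hypoxia and 7545 in control in total RNA. AT2G27720, its direct neighbour in the RefSeq gene order, had 6562 in hypoxia and 7647 in control in large-polysome RNA, and 8183 in hypoxia and 6607 in control in total RNA. On large polysomes both were lower in hypoxia, at -0.33 and -0.22. The total signal of the first differed little between conditions (log2 -0.01) and that of the second was higher in hypoxia (0.31). All 5 measured P1 and P2 genes were thus lower on large polysomes in hypoxia (54.7% of named genes). In total RNA 4 of the 5 were higher (46%), each by less than the median difference of probe set pairs. Mean changes of association were -0.73 for P1 and -0.42 for P2. The measured genes of P0 and P3, counted here with the other 60S genes, were all lower in hypoxia in both fractions. Of named genes 54.7% were below 0 on large polysomes and 54% in total RNA. The total RNA ratios were -0.32, -0.34 and -0.40 for P0, and -0.74 and -0.43 for P3. Of these, -0.32 and -0.34 lie within the median difference of probe set pairs.

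**Figure D3:**
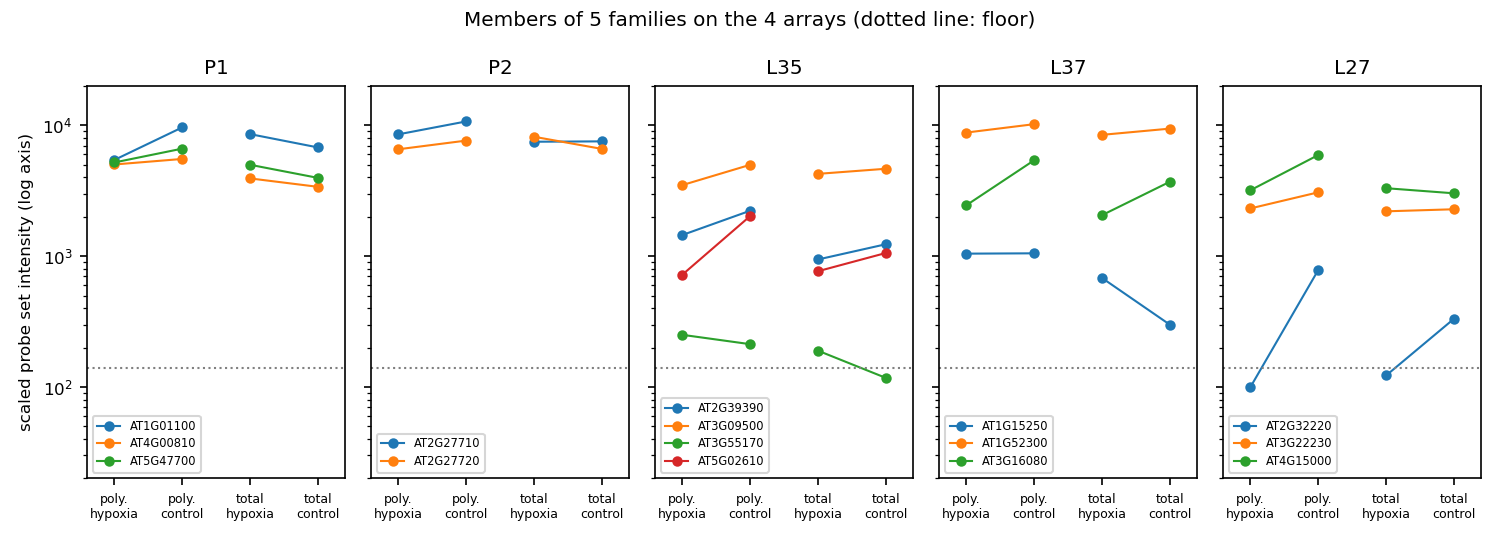
Scaled probe set intensity (y axis, log scale) of the measured members of families P1, P2, L35, L37 and L27 on the 4 arrays; poly. stands for large-polysome RNA, lines join hypoxia and control of 1 fraction and the dotted line is the floor of 139. For example, AT2G32220 is below the floor on both hypoxia arrays, and AT1G15250 is higher in hypoxia in total RNA only.

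Proteins L26, L31 and L35 lie around the exit of the tunnel through which the new polypeptide leaves the ribosome. In L26, AT3G49910 had 8751 in hypoxia and 11434 in control in large-polysome RNA, and 8305 in hypoxia and 9848 in control in total RNA. AT5G67510 had 1245 in hypoxia and 3256 in control in large-polysome RNA, and 1163 in hypoxia and 1542 in control in total RNA. The second differed far more between conditions on large polysomes (log2 -1.39) than the first (-0.39), although their total RNA ratios were alike, at -0.41 and -0.25. In L31, AT2G19740 had 1506 in hypoxia and 2063 in control in large-polysome RNA, and 1528 in hypoxia and 1588 in control in total RNA. AT4G26230 had 4168 in hypoxia and 6760 in control in large-polysome RNA, and 4195 in hypoxia and 4042 in control in total RNA. AT5G56710 had 3517 in hypoxia and 6452 in control in large-polysome RNA, and 2586 in hypoxia and 3758 in control in total RNA. All 3 were lower on large polysomes in hypoxia, with log2 ratios of -0.45, -0.70 and -0.88, and the last was also the lowest of them in total RNA, at -0.54.

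The L35 protein also contacts the signal recognition particle, which brings secretory chains to the membrane. AT3G09500 had 3493 in hypoxia and 4995 in control in large-polysome RNA, and 4259 in hypoxia and 4658 in control in total RNA. AT2G39390 had 1450 in hypoxia and 2225 in control in large-polysome RNA, and 943 in hypoxia and 1233 in control in total RNA. AT5G02610 had 721 in hypoxia and 2026 in control in large-polysome RNA, and 767 in hypoxia and 1057 in control in total RNA. All were lower in hypoxia on both kinds of array, and AT5G02610 had the lowest large-polysome ratio of the members above the floor on all arrays, at -1.49 (a 2.81-fold difference). AT3G55170 went the other way, with 250 in hypoxia and 212 in control in large-polysome RNA, and 189 in hypoxia and 117 in control in total RNA. Its total signal in control was below the floor, so hypoxic total RNA held at least 1.36-fold more signal. On large polysomes it was 1.18-fold higher in hypoxia (log2 0.24), which lies within the median difference of probe set pairs and was -0.13 with the spiked controls.

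L37 and L37a are small zinc-binding proteins. In L37, AT1G15250 had 1045 in hypoxia and 1051 in control in large-polysome RNA, and 680 in hypoxia and 299 in control in total RNA. In total RNA it was the only member to be 2-fold or more above control in hypoxia, at 2.28-fold, and on large polysomes its values in hypoxia and control were nearly equal (log2 -0.01). Its control polysome ratio, 1.81, was the highest of all members, and its change of association, -1.20, the lowest. Both values and the 2.28-fold ratio in total RNA hold the same single reading of 299 in control total RNA. AT3G16080 had 2450 in hypoxia and 5415 in control in large-polysome RNA, and 2059 in hypoxia and 3709 in control in total RNA. It had the lowest total RNA ratio of members above the floor on all arrays, at -0.85, and stood at -1.14 on large polysomes. AT1G52300 had 8810 in hypoxia and 10214 in control in large-polysome RNA, and 8463 in hypoxia and 9445 in control in total RNA, with ratios of hypoxia over control of -0.21 on large polysomes and -0.16 in total RNA. In total RNA the L37 genes spanned 2.04 on the log2 scale.

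In L37a, AT3G60245 had 14269 in hypoxia and 13118 in control in large-polysome RNA, and 9936 in hypoxia and 11641 in control in total RNA. It was the single member whose change of association was above 0, at 0.35, with a polysome ratio of 0.52 in hypoxia and 0.17 in control. This change lies within the median difference of probe set pairs, and with the spiked controls it was -0.32. The other L37a gene, AT3G10950, was below the floor on all 4 arrays, as was AT1G36240 of L30. The second L30 gene, AT1G77940, had 8217 in hypoxia and 8339 in control in large-polysome RNA, and 6224 in hypoxia and 5652 in control in total RNA. Its change of association was -0.16, and its large-polysome ratio of hypoxia over control was -0.02. In yeast L30 binds its own transcript and holds back its splicing.

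In L27, AT2G32220 had 99.6 in hypoxia and 784 in control in large-polysome RNA, and 122 in hypoxia and 332 in control in total RNA. Both hypoxia values were below the floor, so in hypoxia it was at least 5.63-fold lower on large polysomes and at least 2.39-fold lower in total RNA, the lowest of the 35 members in both. Its polysome ratio could be had in control only, at 1.24. The other L27 genes stood apart from it in total RNA. AT3G22230 had 2316 in hypoxia and 3077 in control in large-polysome RNA, and 2201 in hypoxia and 2283 in control in total RNA. AT4G15000 had 3190 in hypoxia and 5932 in control in large-polysome RNA, and 3307 in hypoxia and 3023 in control in total RNA. Their large-polysome ratios of hypoxia over control were -0.41 and -0.89, and their total RNA ratios -0.05 and 0.13, so that the change of association of AT4G15000 was -1.02.

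Families L22, L28 and L29 had 2 measured genes each. In L22, a protein that binds RNA on the outer face of the subunit, AT3G05560 had 5487 in hypoxia and 8632 in control in large-polysome RNA, and 4052 in hypoxia and 5457 in control in total RNA. AT5G27770 had 2426 in hypoxia and 3904 in control in large-polysome RNA, and 2499 in hypoxia and 2688 in control in total RNA. They were alike on large polysomes, at -0.65 and -0.69. In L28, AT2G19730 had 7214 in hypoxia and 9264 in control in large-polysome RNA, and 6308 in hypoxia and 5931 in control in total RNA. AT4G29410 had 4138 in hypoxia and 5273 in control in large-polysome RNA, and 3577 in hypoxia and 2761 in control in total RNA. Both were lower in hypoxia on large polysomes, at -0.36 and -0.35, and higher in total RNA, at 0.09 and 0.37. AT2G19730 lies next to the L31 gene AT2G19740 in the RefSeq gene order, and their large-polysome ratios were -0.36 and -0.45.

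In L29, AT3G06680 had 1710 in hypoxia and 2791 in control in large-polysome RNA, and 1408 in hypoxia and 1596 in control in total RNA. AT3G06700, with 1 gene between them in the RefSeq order, had 2788 in hypoxia and 4439 in control in large-polysome RNA, and 1335 in hypoxia and 2091 in control in total RNA. Their large-polysome ratios of hypoxia over control were -0.71 and -0.67, but in total RNA they stood at -0.18 and -0.65. AT3G06700 was the single member at least 2-fold richer on large polysomes in hypoxia, at 1.06 against 1.09 in control, and its change of association was -0.02. After quantile normalization its hypoxia ratio was 0.99 and no member was 2-fold richer.

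In L34, AT1G26880 had 5075 in hypoxia and 7054 in control in large-polysome RNA, and 2869 in hypoxia and 3794 in control in total RNA. AT3G28900 had 1660 in hypoxia and 2696 in control in large-polysome RNA, and 1692 in hypoxia and 1386 in control in total RNA. Their polysome ratios were apart in hypoxia, at 0.82 and -0.03, and alike in control, at 0.89 and 0.96. In total RNA the first was lower in hypoxia, at -0.40, and the second higher, at 0.29. In L35a, AT1G07070 had 399 in hypoxia and 1044 in control in large-polysome RNA, and 292 in hypoxia and 447 in control in total RNA. AT1G74270 had 3253 in hypoxia and 3156 in control in large-polysome RNA, and 2662 in hypoxia and 2448 in control in total RNA. The first was at least 2-fold lower in hypoxia on large polysomes, at -1.39, and the second was at 0.04.

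In L36, AT2G37600 had 1032 in hypoxia and 1390 in control in large-polysome RNA, and 787 in hypoxia and 617 in control in total RNA. AT3G53740 had 6001 in hypoxia and 6174 in control in large-polysome RNA, and 5844 in hypoxia and 5561 in control in total RNA. AT5G02450 had 3605 in hypoxia and 5713 in control in large-polysome RNA, and 3173 in hypoxia and 3436 in control in total RNA. Their total RNA ratios were 0.35, 0.07 and -0.11, all within the median difference of probe set pairs. The changes of association were -0.78, -0.11 and -0.55 in the same order.

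All 13 families with at least 2 measured members had every measured member above 0 in the control polysome ratio. In large-polysome RNA 11 of the 13 had every measured member below 0 in hypoxia, L35 and L35a being the others. These counts regroup the 35 of 35 and 32 of 35 members given above and add no further evidence. Among single named genes 47.3% were above 0 in the control ratio and 54.7% below 0 in large-polysome RNA. No share was counted for other families of like size. How far genes of 1 family stood apart was set beside genes of different families, with no test. For the change of association, 23 pairs within a family differed by a median of 0.48, against 0.37 for 505 pairs from different families and 0.47 for probe sets of the same gene. For hypoxia over control the differences within and between families were 0.39 and 0.37 in large-polysome RNA, and 0.32 and 0.36 in total RNA. Near-identical copies may share signal on these probe sets, which was not tested.

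Where total and large-polysome values are set side by side, 12 of the 33 members above the floor on all arrays were lower on large polysomes by over 1.5-fold in hypoxia with total RNA within 1.5-fold (background 9.15%), or 20 with the spiked controls (all named genes 28%). Across these 33 genes the responses in large-polysome and in total RNA, which share no array, had Pearson r 0.567 and Spearman rho 0.504. Across 5847 named genes the same coefficients were 0.773 and 0.730. Genes on the same arrays are not independent replicates.

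Among the members, dimmer probe sets had the higher polysome ratios in control. Across the 33 members the polysome ratio in hypoxia had r -0.250 and rho -0.186 with the mean log2 intensity over the 4 arrays, and that in control -0.727 and -0.686. Over 5847 named genes the control coefficients were 0.053 and 0.082. The member coefficient depends on the genes taken: with no floor, which adds 4 genes with values below it, r was 0.534. Among these, AT3G10950 had intensities of 1.3 to 29.2. With the floor at the 20th percentile, which leaves out AT3G10950 and keeps the other 36 members, r was -0.319. The brighter 17 members had a median control ratio of 0.56 and the dimmer 16 one of 0.94, and their median changes of association were -0.34 and -0.65. All 259 named genes at least as bright as the median member, a set chosen after the data were seen, had a median control ratio of 0.04 with 52.5% above 0, and a median change of 0.08. The highest intensity on the array of large-polysome RNA was 26548 in hypoxia and 18689 in control, and on that of total RNA 26772 in hypoxia and 28678 in control. The part of brightness in the ratios was not tested.

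**Figure D4:**
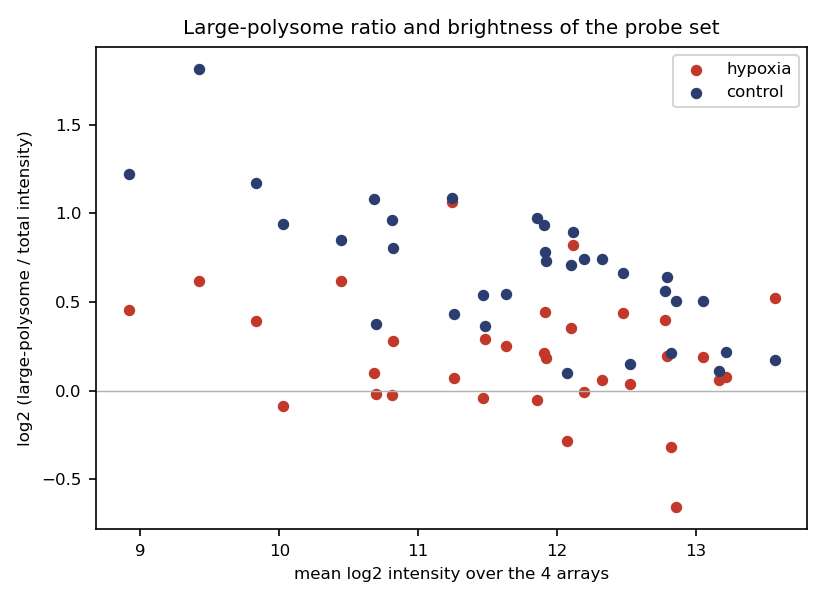
Log2 polysome ratio, large-polysome over total intensity (y axis) against the mean log2 intensity over the 4 arrays (x axis) for the 33 members above the floor on all arrays, in hypoxia (red) and control (blue). Control ratios of the dimmer 16 members have a median of 0.94 and those of the brighter 17 one of 0.56.

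The rest of the cytosolic ribosome was read from lists of 66 other 60S loci (P0, L3 to L19, L36a, L40 and P3) and 95 loci of the 40S subunit, of which 41 and 47 had a probe set of their own. Beside the median log2 ratio of hypoxia over control on large polysomes of -0.48 for the L21 to L39, P1 and P2 genes, the other 60S genes had -0.46 and the 40S genes -0.66, with 36 of 37 and 41 of 42 genes below 0. In total RNA the medians were -0.06 for the L21 to L39, P1 and P2 genes, -0.11 for the other 60S genes and 0.00 for the 40S genes. In hypoxia the polysome ratio had medians of 0.19 for the L21 to L39, P1 and P2 genes, 0.08 for the other 60S genes and 0.06 for the 40S genes. In control these medians were 0.71, 0.44 and 0.65 in the same order, with 34 of 38 other 60S genes and 41 of 42 of the 40S genes above 0. The median changes of association were -0.40, -0.29 and -0.54. No test of a difference between these groups could be made. The lowest and the highest change among the 40S genes were those of AT5G15520 (S19), at -1.64, and AT5G20290 (S8), at 0.65. The lowest and the highest among the other 60S genes were those of AT3G11250 (P0), at -1.36, and AT5G60670 (L12), at 0.13. The other measured P0 genes had changes of -0.05 and 0.01, so the low value was not shared by the genes of this family. Of 6 genes written down for ribosome biogenesis, which build the subunits in the nucleolus, 1 had a probe set. This gene, AT3G05060, a NOP58 homologue, had ratios of hypoxia over control of -0.85 in large-polysome RNA and -0.36 in total RNA.

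**Figure D5:**
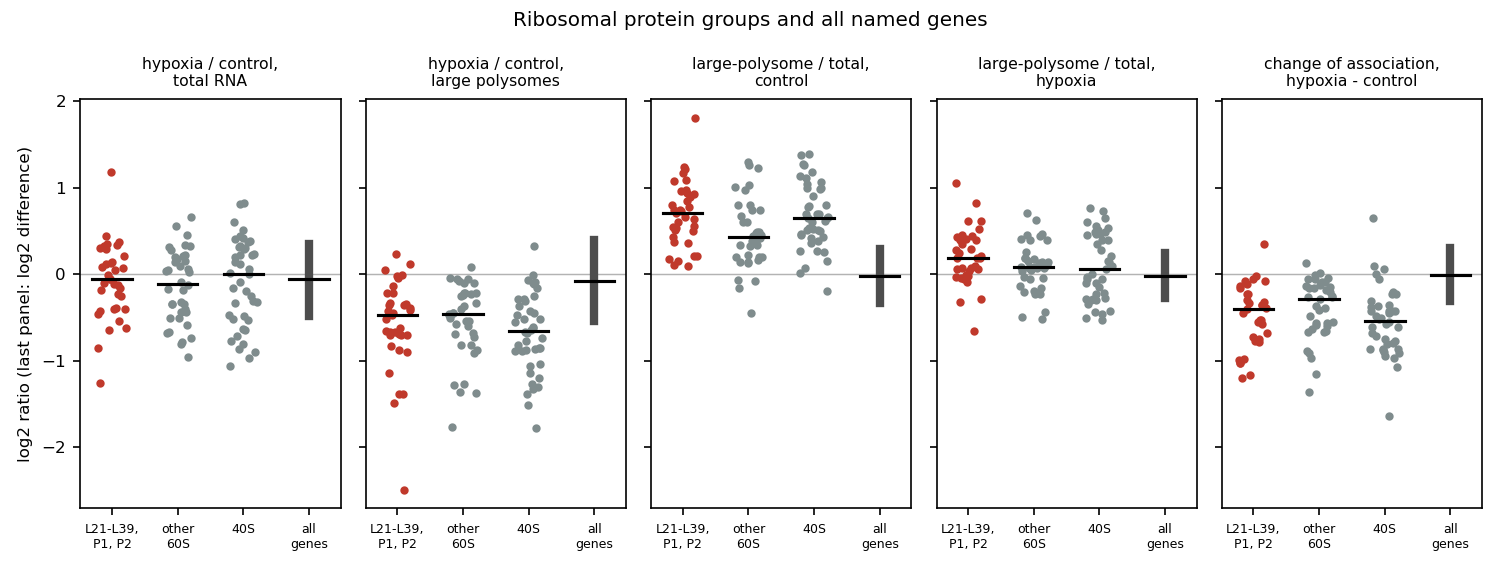
Log2 ratios (y axis; the last panel shows a log2 difference) for the L21 to L39, P1 and P2 genes (red), other 60S and 40S ribosomal protein genes (grey), with medians as black lines; for all named genes the bar spans the quartiles. In large-polysome RNA the 3 ribosomal groups have medians of -0.48, -0.46 and -0.66, against -0.07 for all genes.

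Whole seedlings hold root, leaf and dividing tissue, and fewer cells of a type cannot be told apart from less of its RNA per cell. Of 5 root markers 3 had a probe set, and their summed intensity on large polysomes was 14519 in hypoxia, with 1 of 3 below the floor, and 13410 in control, with none below it. In total RNA the sum was 14516 in hypoxia, with 1 below the floor, and 20411 in control, with none. These sums were almost wholly PYK10, whose log2 ratio of hypoxia over control was 0.16 on large polysomes and -0.44 in total RNA. The other root markers were lower in hypoxia, with ratios of -1.15 on large polysomes and -1.82 in total RNA for EXPA18, and bounds of -0.22 and -1.29 for EXPA7. The 4 leaf markers of 9 with a probe set, all above the floor, summed to 30893 in hypoxia and 26790 in control on large polysomes, and to 35330 and 37288 in total RNA. These sums were mostly LHCB4.1 and RCA. On large polysomes LHCB4.3 was lower in hypoxia, at -0.26, and the other 3 were higher, at 0.11 to 0.30. In total RNA all 4 were lower, at -0.02 to -0.59. The 4 dividing-cell markers of 7 with a probe set were all histone H2B genes, with 3627 in hypoxia and 5071 in control on large polysomes, and 2128 and 2825 in total RNA. All 4 were lower in hypoxia in both fractions, but by unlike amounts. On large polysomes they ranged from -0.05 for HTB2 to -1.71 for HTB1. In total RNA they ranged from -0.08 for HTB11 to a bound of -1.69 for HTB1, which was below the floor there in hypoxia. The part of the root, leaf and dividing-cell markers in the ribosomal protein ratios was not tested.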

How the data were processed

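The members and lists were chosen with earlier results of these data known. The authors deposited linear probe set intensity values for 22810 probe sets on 4 Affymetrix ATH1 arrays. How probes were summarised and corrected for background is not given in the sources used here. The arrays came from 1 chip lot, per the file headers. Mean intensities between the 2nd and 98th percentile differed by under 1% between arrays, so the authors had scaled them. They were rescaled to an equal trimmed mean of the 22746 non-control probe sets (factors 0.999 to 1.001).

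Of these probe sets 13513 had 1 gene in the platform annotation, 503 several and 8730 none listed; loci came from RefSeq (TAIR10.1) through the Entrez identifier, used for names and gene order only. Several probe sets of a gene were represented by the brightest; each member had 1. Values below the floor were set to it before log2. A gene below it on both arrays of a ratio had none, and the change of association needed all 4 arrays. Python 3.11.15, numpy 2.4.6, pandas 2.3.3 and scipy 1.17.1 were used, and the ratios were tested on simulated data. The number of arrays limits the precision. Every measured member is named, with its values on all arrays unless it lay below the floor on all 4. From the other ribosomal lists, only genes with the highest or lowest change were named.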

Additional observations from a re-analysis of the deposited data

Results flagged for a closer look

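The P1 gene AT1G01100 had a log2 polysome ratio (large-polysome over total intensity) of -0.66 in hypoxia and 0.51 in control, so the ratio had opposite signs in the 2 conditions. Every measured member was above 0 in control, so the 9 members with opposite signs were the 9 of 34 below 0 in hypoxia. Of all named genes 52.6% were below 0 in hypoxia, and their share with opposite signs was not counted. Among the 9 members AT1G01100 was the only one whose values both exceeded the median difference of probe set pairs. With 1 array per group the difference was not tested.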

How the results depend on the processing

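With 1 array per group, a ratio of 1 gene can lie within probe error, and genes near or below the floor have no reliable ratio. No paired analysis was possible because each group had 1 array, and no array could be left out. The relation of the polysome ratio to protein length and the promoter motifs were not run, because protein and promoter sequences were not used here. Unless named below, the 5 medians moved by under 0.1 (log2), and the shares above or below 0 stayed within their 95% binomial interval, under the 9 alternatives. That interval treats genes as independent draws, which genes on the same arrays are not. It serves here as a tolerance only and measures no spread between samples. In total RNA the median of members minus that of all genes was 0.0024 and turned to -0.038 and -0.052 with the floor at the 20th and 60th percentile, -0.088 with no floor, -0.21 after quantile normalization and -0.076 with 1 mean per family; the cause was not tested. Scaling on the spiked controls turned the total RNA median to 0.25 with 28.6% of members below 0. It moved the large-polysome median to -0.84 with 100% below 0, the control ratio to 1.38, and the change of association to -1.07 with 100% below 0; all genes shifted too. Quantile normalization gave -0.60 in large-polysome RNA, or -0.62 relative to all genes, and 1 mean per family gave -0.59 and -0.51. With the spiked controls, 15 members in place of 5 were 2-fold lower in large-polysome RNA, 28 in place of 6 were 2-fold higher in the control ratio, and 21 in place of 4 were 2-fold lower in the change, which was 2 with the median of named genes set equal. The correlation of the control polysome ratio with brightness was 0.534 with no floor and -0.319 with the floor at the 20th percentile, against -0.727; both settings add genes below the floor. In total RNA 1 member was 2-fold higher and 1 lower, or 1 and 0 with the spiked controls.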

Other observations

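Members without a probe set of their own were partly covered by 8 probe sets that the platform annotation assigns to 2 loci of 1 family. The 2 probe sets of L39, a small protein that lines the exit tunnel, had large-polysome ratios of hypoxia over control of -0.50 and -0.92 and changes of association of -0.76 and -0.71. The 2 probe sets of L38 had changes of -0.42 and -0.36. Those of L21, each for another pair of loci, had -0.41 and -0.01, which lie less far apart than the median difference of 0.47 between probe sets of 1 gene. In the same order the polysome ratios in control of these L21 probe sets were 0.91 and -0.06. The second is thus not above 0, unlike the ratio of every measured member. The other shared probe sets had control ratios of 0.42 to 0.82. The shared probe set of L32 had a change of -0.02, and that of L35a one of 0.15, with a large-polysome ratio of hypoxia over control of -0.85. These probe sets were looked at after the values of the members had been seen.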
